A study of Mus musculus with 18 samples.

Results

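Matrix metalloproteinases (MMPs) and the tissue inhibitors that block them (TIMPs) were followed in microglia and macrophages of the injured spinal cord as 10 genes, the MMPs Mmp2, Mmp8, Mmp9, Mmp12, Mmp13, Mmp14 and Mmp19 and the inhibitors Timp1, Timp2 and Timp3. They were the rows of the deposited gene count table that bear these symbols, 10 of 53465 genes. The 18 libraries came from 9 female C57BL/6J mice of 8 to 10 weeks, all with a spinal cord injury (SCI). At 48 h after SCI, 3 mice received an intraspinal injection of PBS, 3 received 100 ng of recombinant IL-13 (rIL-13) and 3 received 100 ng of recombinant IL-4 (rIL-4). Microglia and macrophages were sorted from each cord 24 h later with antibodies to CD45, CD11b and F4/80, which gave 6 groups of 3 libraries. No group held uninjured tissue, so every value below is from injured cord.

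MMPs are zinc-dependent endopeptidases that cut collagens, proteoglycans and other proteins of the extracellular matrix as well as cytokines and cell surface proteins. Most are secreted as inactive precursors and are opened by another protease, while membrane-type enzymes such as MMP14 are held at the cell surface and can process the precursor of MMP2. TIMPs bind the active site of the mature enzymes, and TIMP2 also takes part in bringing pro-MMP2 to MMP14. After SCI, MMPs are known for opening the blood-spinal cord barrier and for remodelling the matrix of the scar. These data measured transcripts only, so they carry nothing on precursor cleavage or enzyme activity.

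Start site windows from RefSeq (GRCm38.p6), which run from 250 bases before to 50 bases after each start, were matched by symbol for 7 of the 10 genes, and Mmp2, Mmp9 and Mmp19 had no entry. Those of Timp1, Mmp14 and Mmp12 are shown because these genes changed with a cytokine, and that of Mmp13 because it lies next to Mmp12 in the same gene cluster on chromosome 9. Each is written 5′ to 3′ on the plus strand, which is the strand of all 4 genes. Capitals mark matches, on either strand, to TGANTCA, a consensus site of the AP-1 family, to TATAAA, the TATA box, or to GGGCGG, the GC box. Variants that differ from these motifs by 1 base were not searched.
Timp1, chrX:20869916-20870215: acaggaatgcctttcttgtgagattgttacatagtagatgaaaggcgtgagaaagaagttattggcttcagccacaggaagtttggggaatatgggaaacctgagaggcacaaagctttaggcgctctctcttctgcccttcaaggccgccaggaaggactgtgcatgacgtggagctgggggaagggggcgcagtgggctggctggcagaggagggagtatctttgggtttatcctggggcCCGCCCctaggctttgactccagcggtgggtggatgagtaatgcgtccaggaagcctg
Mmp14, chr14:54431348-54431647: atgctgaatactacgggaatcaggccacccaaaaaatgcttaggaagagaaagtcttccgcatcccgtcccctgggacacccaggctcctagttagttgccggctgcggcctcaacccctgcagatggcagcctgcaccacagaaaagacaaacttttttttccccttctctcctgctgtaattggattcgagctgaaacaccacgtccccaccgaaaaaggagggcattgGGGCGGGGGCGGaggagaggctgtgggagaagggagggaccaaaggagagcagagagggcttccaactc
Mmp12, the second of its 2 starts, chr9:7347124-7347423: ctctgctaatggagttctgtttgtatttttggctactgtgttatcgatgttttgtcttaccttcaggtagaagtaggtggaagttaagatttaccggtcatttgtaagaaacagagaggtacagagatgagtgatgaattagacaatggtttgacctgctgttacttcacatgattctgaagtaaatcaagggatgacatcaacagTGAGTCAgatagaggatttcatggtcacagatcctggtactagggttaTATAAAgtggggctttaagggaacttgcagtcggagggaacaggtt
Mmp13, chr9:7272264-7272563: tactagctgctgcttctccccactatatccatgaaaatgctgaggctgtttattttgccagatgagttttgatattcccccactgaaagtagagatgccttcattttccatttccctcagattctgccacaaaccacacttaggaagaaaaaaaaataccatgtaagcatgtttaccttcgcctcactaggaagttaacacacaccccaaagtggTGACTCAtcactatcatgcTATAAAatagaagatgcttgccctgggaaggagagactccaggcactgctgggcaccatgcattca
The windows of Mmp12 and Mmp13 each held 1 TGANTCA and 1 TATAAA and no GC box. In contrast, those of Timp1 and Mmp14 held 1 and 2 GC boxes, which lay side by side in Mmp14, and neither of the other motifs. The window at the first start of Mmp12 held none of them. Among all 32851 windows of this length, 7.81% held TGANTCA, 13.6% TATAAA and 35.7% GGGCGG. The palindrome bound by STAT factors, TTCNNNGAA, and the form with 4 bases between its arms that STAT6 prefers were also searched on both strands. They were found in 8.3% and 6.95% of all windows, and each in 0 of the 8 windows of the members. No motif overlapped another in the 4 windows printed, and a match of letters is not a measurement of binding.

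The libraries held between 35961305 and 45849829 counts. Values are given as normalized counts, which are counts divided by a size factor computed over all 18 libraries, in the order of the mouse numbers (1, 2 and 3 for PBS, 5, 6 and 7 for rIL-13, 8, 9 and 10 for rIL-4). The treatment was visible in Chil3, a chitinase-like gene of alternative activation. With rIL-4, Chil3 rose by 7.12 on the log2 scale in microglia (adjusted p = 0.00127, edgeR) and by 5.14 in macrophages (adjusted p = 4.08e-05, edgeR). With rIL-13, it rose by 5.41 in microglia (adjusted p = 0.00778, edgeR) and by 4.54 in macrophages (adjusted p = 0.00014, edgeR). Without PBS mouse 3, the microglial change in Chil3 with rIL-13 was 5.17 and did not pass the test (adjusted p = 0.056, edgeR). Without PBS mouse 2, the microglial changes were 8.08 with rIL-4 and 6.37 with rIL-13. Chil3 was chosen as this check after its values were seen. The summed level of 10 microglial markers was between 138700 and 562000 in the microglia libraries and between 18340 and 175800 in the macrophage libraries, and its mean was lower with either cytokine than with PBS in both.

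The sorted libraries also held transcripts of other cells. All 12 markers of fibroblasts and pericytes, such as Col1a1 and Dcn, had counts in each group of microglia, although Kcnj8 was at 0 in 2 of the 3 rIL-4 libraries. Their summed level was 106800 to 154000 with PBS, 62640 to 379800 with rIL-13 and 11070 to 70120 with rIL-4. In macrophages, the same sum was between 140.2 and 1385. The rIL-13 microglia of mouse 6 stood apart with the highest sum, 379800. Endothelial markers were likewise higher in microglia, with 39390 to 125600 in microglia and 1808 to 16210 in macrophages. Neutrophil markers lay the other way, with 3572 to 12440 in microglia and 9232 to 116600 in macrophages, where the rIL-13 library of mouse 6 was highest. In a bulk library, fewer cells of a type and less RNA per cell cannot be told apart. The sort kept cells with CD45, CD11b and F4/80, which fibroblasts, pericytes, endothelial cells and astrocytes do not carry together, and the gating scheme of the study placed granulocytes among the F4/80-negative cells. The study also described the sorted cells as nearly pure. How the transcripts of other cells entered the libraries was not tested.

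To compare members with each other, normalized counts were divided by the length of each gene's exons. On this scale, per kb, Timp1 had the highest mean of the 10 genes in every group except PBS macrophages. In PBS microglia, it was followed by Timp2 and Timp3, whose libraries overlapped, and then by Mmp2 at 582 ± 21.9 (SD, n = 3). Mmp14, Mmp8, Mmp9 and Mmp19 came next with overlapping libraries, and Mmp12 and Mmp13 were lowest. In PBS macrophages, the order was another one. Mmp8 led with 3736 ± 1059 normalized counts per kb, above every library of Mmp9, which overlapped with Timp1. Timp3 was last with 2.63 ± 0.868. These levels rest on the summed exons of all annotated transcripts, which are long for Timp3 and Mmp12 (8144 and 7237 bases) and short for Timp1 (888 bases).

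Inhibitor and protease transcripts were then summed. The summed level per kb of the 3 TIMPs was between 0.289 and 0.467 times that of the 7 MMPs in the PBS macrophages. In rIL-13 macrophages, the ratio was between 1.54 and 3.3, and in rIL-4 macrophages between 3.66 and 6.78. The 3 groups did not overlap. Without mouse 6, the rIL-13 ratios were 3.19 and 3.30. Mmp8 and Mmp9 made up 79.7% to 83.0% of the MMP sum in PBS macrophages, 60.2% to 73.7% with rIL-13 and 44.3% to 55.5% with rIL-4. In macrophages, both moved with the summed neutrophil markers, whose mean was 39980 with PBS, 52380 with rIL-13 and 18530 with rIL-4. The rIL-13 mean rested on mouse 6, at 116600. Mice 5 and 7 were at 21130 and 19390, below the PBS libraries, of which the lowest was at 31970. The part of neutrophil RNA in the ratio was not tested. In microglia, by contrast, the ratio was between 4.06 and 9.06 in all libraries, and the groups overlapped. The ratio is given as a description, without a test, and it weights each gene by its transcript level and not by the activity of its protein.

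**Figure D1:**
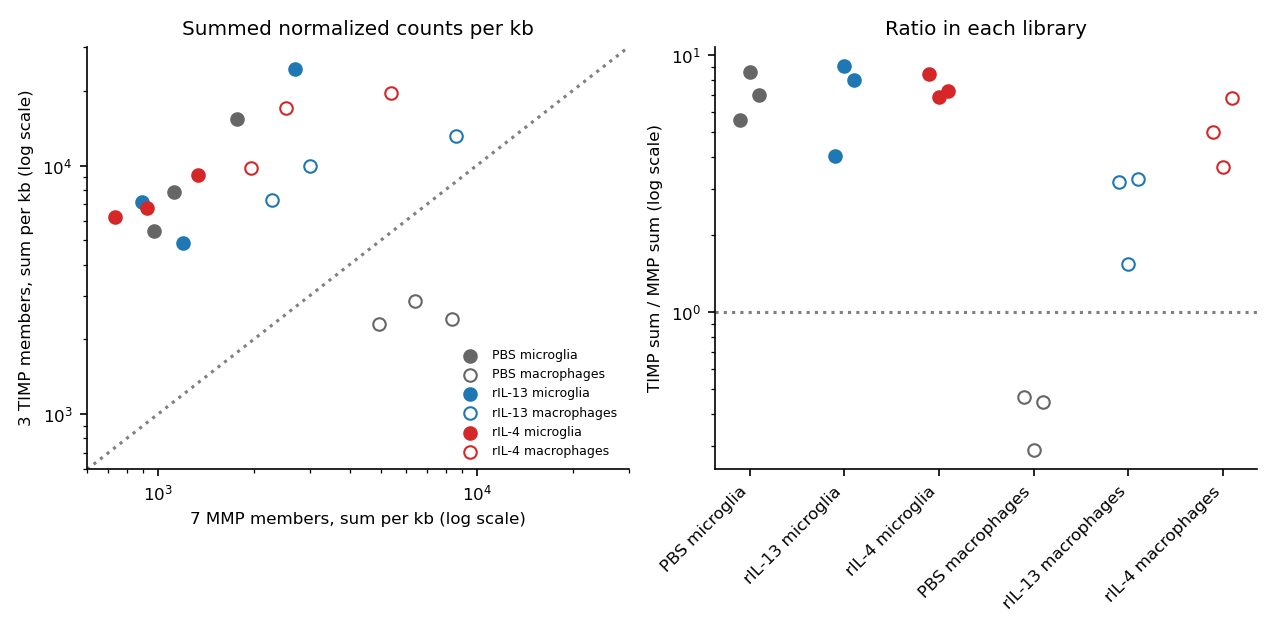
Left, summed normalized counts per kb of the 3 TIMPs (vertical) and the 7 MMPs (horizontal) in each of 18 libraries on log axes, with a dotted line where both are equal. Right, their ratio in each library, by group. The 3 PBS macrophage libraries lie between 0.289 and 0.467, below the line, and every other library lies above 1.

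Differential expression (DE) was tested with edgeR's quasi-likelihood test, and a gene was called at an adjusted p under 0.05 over all genes tested. All 10 members passed the filter on low counts in each fit. In macrophages, rIL-4 changed 4 members against PBS, where 14.0% of the 13606 genes tested were called. Of the 4, Timp1 and Mmp12 rose, against 6.77% of all genes, and Mmp2 and Mmp14 fell, against 7.20%. rIL-13 changed 2 members in macrophages, against 4.19% of all genes. Timp1 rose (2.53% of all genes) and Mmp14 fell (1.66% of all genes). In microglia, rIL-4 changed only Mmp12, which rose, and 2.22% of the 15566 genes tested were called. With rIL-13, edgeR called 0 members in microglia against 0.366% of all genes, while 1 member had an unadjusted p under 0.05 and DESeq2 called 1. The median log2 fold change of the members was -0.19 with rIL-4 and 0.09 with rIL-13 in macrophages, beside 0.02 and 0.00 for all genes. In microglia, it was -0.54 and 0.32, beside -0.06 and 0.00.

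**Figure D2:**
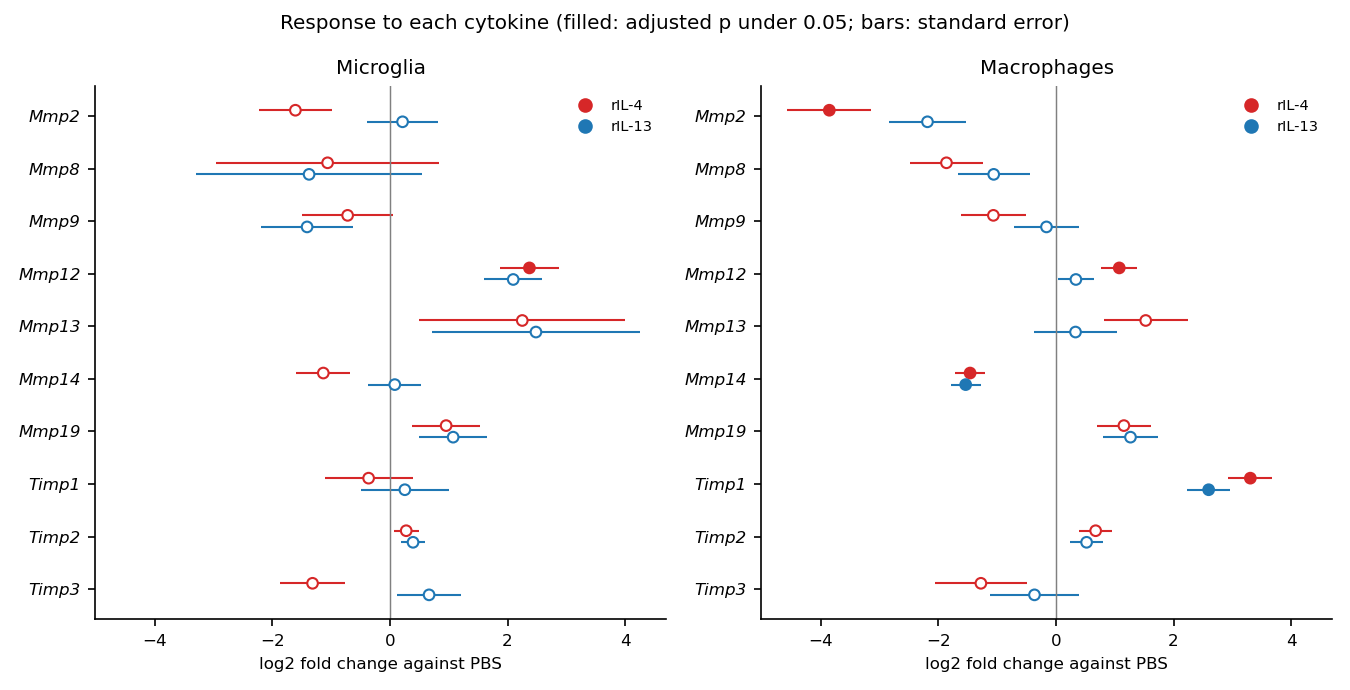
Log2 fold change against PBS of the 10 members in microglia (left) and macrophages (right), with rIL-4 in red and rIL-13 in blue. Bars are standard errors and filled points passed an adjusted p of 0.05 in edgeR. Filled points are Mmp12 with rIL-4 in microglia, Timp1 and Mmp14 with both cytokines in macrophages, and Mmp2 and Mmp12 with rIL-4 in macrophages.

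Timp1 (ENSMUSG00000001131.11, chromosome X from 20870166 to 20874735) encodes a secreted inhibitor of most soluble MMPs. In macrophages, it was at 1033, 1337 and 1500 normalized counts with PBS, at 4679, 10810 and 7557 with rIL-13 and at 6864, 16520 and 13580 with rIL-4. Every library of either cytokine was above every PBS library, while the rIL-13 and rIL-4 libraries overlapped. Timp1 was 9.9-fold higher with rIL-4 than with PBS, a log2 fold change of 3.31 with a standard error of 0.376 (adjusted p = 0.000464, edgeR). With rIL-13, it was 6.05-fold higher, with a log2 fold change of 2.60 and a standard error of 0.365 (adjusted p = 0.00403, edgeR). The rIL-4 call held in all 12 alternatives. The rIL-13 call was lost only when all 18 libraries shared a single model (adjusted p = 0.0735, edgeR).

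In microglia, Timp1 was at 2101, 11100 and 4526 normalized counts with PBS, at 2190, 15690 and 3418 with rIL-13 and at 3015, 6361 and 4014 with rIL-4. The 3 groups overlapped, and the spread between mice of 1 group was wide. The log2 fold changes were -0.36 with rIL-4 and 0.25 with rIL-13, each with a standard error of 0.75, and neither was called. The first was 0.45 without PBS mouse 2, and the second was -1.05 without rIL-13 mouse 6. The highest value, with rIL-13 in mouse 6, came from the library with the highest sum of fibroblast and pericyte markers. Over the 9 microglia libraries, which share the sort and the library protocol, Timp1 had a Pearson correlation of 0.441 with that sum on log values and of 0.836 with the sum of 6 astrocyte markers. In macrophages, the summed endothelial markers were between 1808 and 2200 with PBS and between 7964 and 16210 with rIL-4, and their correlation with Timp1 was 0.975. Of the 8 endothelial markers, 3 had a higher mean with rIL-4 than with PBS, which were Pecam1 (334 and 8379 normalized counts with PBS and rIL-4), Flt1 (249 and 2447) and Cdh5 (19.7 and 20.8), and the other 5 had a lower one. The astrocyte sum had a mean of 1009 in PBS, 7503 in rIL-13 and 9488 in rIL-4 macrophages and a correlation of 0.922 with Timp1. It was highest in rIL-13 mouse 6 (15680) and rIL-4 mouse 9 (19220), and 2413 to 6698 in the other cytokine libraries. Of its difference between PBS and rIL-4, most came from Gja1, whose mean was 244 with PBS and 8874 with rIL-4, while Gfap was at 171 and 88.9. Other lists moved with Timp1 in macrophages too. The correlation was 0.959 with macrophage and monocyte markers and -0.933 with microglial markers. It was -0.968 with oligodendrocyte lineage and -0.958 with mast cell and eosinophil markers. The part of other cells in the values of Timp1 was not tested. The gene lies within Syn1 on the opposite strand without shared exon bases, and Syn1 had at most 386 normalized counts in any library.

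Timp2 (ENSMUSG00000017466.9, chromosome 11 from 118301069 to 118355740), the inhibitor that also takes part in the activation of MMP2, was between 3542 and 8140 normalized counts in the 9 macrophage libraries and between 5167 and 9323 in the 9 microglia libraries. In macrophages, its log2 fold change was 0.68 with rIL-4 (adjusted p = 0.141, edgeR) and 0.52 with rIL-13 (adjusted p = 0.375, edgeR). It passed the threshold only without the rIL-4 macrophages of mouse 9 (adjusted p = 0.0468, edgeR). The groups overlapped in both cell types.

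Timp3 (ENSMUSG00000020044.13, chromosome 10 from 86300372 to 86349506) encodes the inhibitor that binds to the matrix. In microglia, it was at 12580, 12200 and 7634 normalized counts with PBS, at 7167, 35530 and 9147 with rIL-13 and at 5419, 4638 and 2606 with rIL-4. All 3 rIL-4 libraries were below the others. Its log2 fold change with rIL-4 was -1.32 against PBS (adjusted p = 0.274, edgeR) and -1.98 against rIL-13 (adjusted p = 0.31, edgeR), and neither was called. Without the rIL-13 library of mouse 6, the latter was -0.94. In macrophages, Timp3 was between 2.85 and 28.2 normalized counts. The gene shares 1733 exon bases with Syn3 on the opposite strand, and the libraries carry no strand. Syn3 had 0 counts in PBS macrophages and at most 223 normalized counts in microglia.

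Mmp14 (ENSMUSG00000000957.11, chromosome 14 from 54431612 to 54445364) encodes MT1-MMP, the membrane-type enzyme that cuts fibrillar collagen and processes pro-MMP2. In macrophages, it was at 2760, 3554 and 3389 normalized counts with PBS, at 789, 1342 and 1153 with rIL-13 and at 1179, 1470 and 758 with rIL-4. All cytokine libraries were below all PBS libraries, and the cytokines overlapped. Mmp14 was 2.75-fold lower with rIL-4, with a log2 fold change of -1.46 and a standard error of 0.256 (adjusted p = 0.00435, edgeR). It was 2.9-fold lower with rIL-13, with a log2 fold change of -1.54 and a standard error of 0.257 (adjusted p = 0.00906, edgeR). The rIL-4 call held in all 12 alternatives, and the rIL-13 call in all but the single model of 18 libraries (adjusted p = 0.0714, edgeR).

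In microglia, Mmp14 was at 1122, 1463 and 1226 normalized counts with PBS, at 458, 2322 and 1275 with rIL-13 and at 675, 508 and 510 with rIL-4. The rIL-4 libraries were below the PBS libraries, and rIL-13 spanned both. The log2 fold change of Mmp14 with rIL-4 was -1.13 (standard error 0.46, adjusted p = 0.26, edgeR), which was not called. It was called when only the 6 libraries compared were fitted (adjusted p = 0.0491, edgeR).

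Mmp2 (ENSMUSG00000031740.8, chromosome 8 from 92827291 to 92853420), the gelatinase that MT1-MMP activates, was low in macrophages. It was at 222, 104 and 260 normalized counts with PBS, at 69.5, 21.5 and 34.8 with rIL-13 and at 20.3, 1.97 and 16.2 with rIL-4. The 3 groups of Mmp2 did not overlap, and the rIL-4 libraries held between 2 and 22 counts before normalization. Mmp2 was 14.5-fold lower with rIL-4 than with PBS, with a log2 fold change of -3.86 and a standard error of 0.717 (adjusted p = 0.00595, edgeR), and this call held in all 12 alternatives. With rIL-13, the log2 fold change was -2.19 (standard error 0.656, adjusted p = 0.104, edgeR), which was called by DESeq2 (adjusted p = 0.00908) and by edgeR without the filter on low counts. Microglial markers were lower in these macrophages too, with a sum of 114600 to 175800 with PBS, 46630 to 94860 with rIL-13 and 18340 to 33960 with rIL-4. Their correlation with Mmp2 over the 9 macrophage libraries was 0.975, and all 10 markers had counts in each group. What RNA of microglia added to Mmp2 in macrophages was not tested.

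In microglia, Mmp2 was at 1902, 2044 and 1938 normalized counts with PBS, at 1288, 4934 and 677 with rIL-13 and at 876, 649 and 355 with rIL-4. The rIL-4 libraries were below the PBS libraries and overlapped with rIL-13. Mmp2 had a log2 fold change of -1.61 with rIL-4 (standard error 0.624, adjusted p = 0.24, edgeR) and was not called. The highest library was again that of mouse 6 with rIL-13.

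Mmp9 (ENSMUSG00000017737.2, chromosome 2 from 164940780 to 164955850), the other gelatinase, is stored in neutrophil granules. In macrophages, it was at 4727, 7956 and 4416 normalized counts with PBS, at 2034, 10070 and 2967 with rIL-13 and at 1638, 4133 and 2132 with rIL-4. The rIL-4 libraries were below all PBS libraries, yet the log2 fold change of -1.07 had a standard error of 0.553 (adjusted p = 0.243, edgeR). With rIL-13, the log2 fold change was -0.16, and mouse 6 held the highest value of Mmp9. Without that library it was -1.15 (adjusted p = 0.17, edgeR), and it was up to 0.21 without other mice. In microglia, Mmp9 was between 143 and 1195 normalized counts, and the groups overlapped.

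Mmp8 (ENSMUSG00000005800.3, chromosome 9 from 7558456 to 7568485) encodes neutrophil collagenase. In macrophages, it was at 6288, 11360 and 9528 normalized counts with PBS, at 2016, 8483 and 2360 with rIL-13 and at 981, 4405 and 1836 with rIL-4. All rIL-4 values lay below those of PBS. The log2 fold change of Mmp8 with rIL-4 was -1.86 (standard error 0.623, adjusted p = 0.0753, edgeR). It was -2.65 and called without the rIL-4 macrophages of mouse 9 (adjusted p = 0.0262, edgeR), and also called without the filter on low counts and with only the 6 libraries compared. With rIL-13, the log2 fold change of Mmp8 was -1.06 (adjusted p = 0.416, edgeR), and -2.01 without mouse 6. In microglia, Mmp8 had 0 counts in 1 rIL-13 library and in 1 rIL-4 library, where a count of 0 allows up to 3 counts, and at most 777 normalized counts in the others.

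Mmp12 (ENSMUSG00000049723.14, chromosome 9 from 7344381 to 7369499) encodes macrophage elastase. In microglia, it was at 366, 286 and 271 normalized counts with PBS, at 2331, 951 and 621 with rIL-13 and at 1274, 1113 and 2281 with rIL-4. Every library of either cytokine was above every PBS library, and the cytokines overlapped. Mmp12 was 5.18-fold higher with rIL-4, with a log2 fold change of 2.37 and a standard error of 0.497 (adjusted p = 0.0444, edgeR). It was not called without any 1 of the 6 mice compared, with adjusted p between 0.0608 and 0.198 in edgeR, whereas the log2 fold change stayed between 1.99 and 2.57. With rIL-13, the log2 fold change was 2.10 (standard error 0.492, adjusted p = 0.204, edgeR). DESeq2 called it (adjusted p = 0.00206), and without mouse 5 it was 1.34. Markers of macrophages and monocytes moved with Mmp12 in microglia. Of 10 such markers, 8 had a higher mean with rIL-4 than with PBS, among them F10 (426 and 4207 normalized counts with PBS and rIL-4), Ms4a7 (711 and 1928) and Ccr2 (664 and 1625), while all 10 microglial markers had a lower one. The correlation of Mmp12 with the sum of the former was 0.832 over the 9 microglia libraries, and most of that sum with rIL-4 was Chil3, at a mean of 5101 with PBS and 687500 with rIL-4. The part of macrophage RNA in the level of Mmp12 in microglia was not tested.

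In macrophages, Mmp12 was at 810, 1558 and 769 normalized counts with PBS, at 1539, 1122 and 1231 with rIL-13 and at 1886, 2920 and 1597 with rIL-4. Each rIL-4 library was above all others. Mmp12 was 2.11-fold higher with rIL-4 than with PBS, with a log2 fold change of 1.08 and a standard error of 0.308 (adjusted p = 0.0425, edgeR). The call was lost without PBS mouse 1 or 3 and without rIL-4 mouse 8, 9 or 10, where edgeR gave adjusted p between 0.0509 and 0.16. It was also lost with only the 6 libraries compared (adjusted p = 0.0588, edgeR) and when a single model held all 18 libraries (adjusted p = 0.188, edgeR). With rIL-13, the log2 fold change was 0.34 (adjusted p = 0.635, edgeR).

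Mmp13 (ENSMUSG00000050578.10, chromosome 9 from 7272514 to 7283331), the neighbour of Mmp12 that encodes collagenase 3, varied widely between mice. In rIL-4 microglia it was at 0, 811 and 40.6 normalized counts, beside 13.6, 35.7 and 133 with PBS and 75.5, 598 and 361 with rIL-13. In rIL-4 macrophages, it was at 136, 869 and 160 normalized counts, beside 55.3, 198 and 164 with PBS and 121, 256 and 140 with rIL-13. The groups overlapped in both cell types. In both cell types, mouse 9 was the highest library of all for Mmp13. Its log2 fold change with rIL-4 was 2.25 in microglia with a standard error of 1.76 (adjusted p = 0.627, edgeR) and 1.53 in macrophages with a standard error of 0.714 (adjusted p = 0.194, edgeR). Without mouse 9, the change was -1.56 in microglia and 0.12 in macrophages, and without PBS mouse 3 it was 3.56 in microglia. With rIL-13, the log2 fold change of Mmp13 was 2.48 in microglia with a standard error of 1.77 (adjusted p = 0.945, edgeR), between 1.85 and 3.80 without single mice, and 0.33 in macrophages (adjusted p = 0.868, edgeR).

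Mmp19 (ENSMUSG00000025355.7, chromosome 10 from 128790910 to 128800824), which encodes an MMP of basement membrane substrates, was at 1206, 1783 and 1508 normalized counts in PBS macrophages, at 1647, 6283 and 2733 with rIL-13 and at 2027, 5022 and 2631 with rIL-4. The rIL-4 libraries were above the PBS libraries, and rIL-13 overlapped with PBS. The log2 fold changes of Mmp19 were 1.16 with rIL-4 (adjusted p = 0.128, edgeR) and 1.27 with rIL-13 (adjusted p = 0.176, edgeR), and the latter was 0.58 without rIL-13 mouse 6. The former was called by DESeq2 (adjusted p = 0.0499) and, in edgeR, without the filter and with only the 6 libraries compared, and the latter was called without the filter (adjusted p = 0.041, edgeR). In microglia, Mmp19 was between 208 and 1567 normalized counts, and the log2 fold changes were 0.96 with rIL-4 and 1.08 with rIL-13, not called, or 1.58 and 1.70 without PBS mouse 2. Of its 3533 exon bases, 789 are shared with Tmem198b and 212 with Gm47093 on the opposite strand, and reads within them cannot be assigned to 1 strand. Tmem198b had a mean of 701 normalized counts in PBS microglia, where Mmp19 had 443, and of 486 with PBS and 497 with rIL-4 in macrophages.

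**Figure D3:**
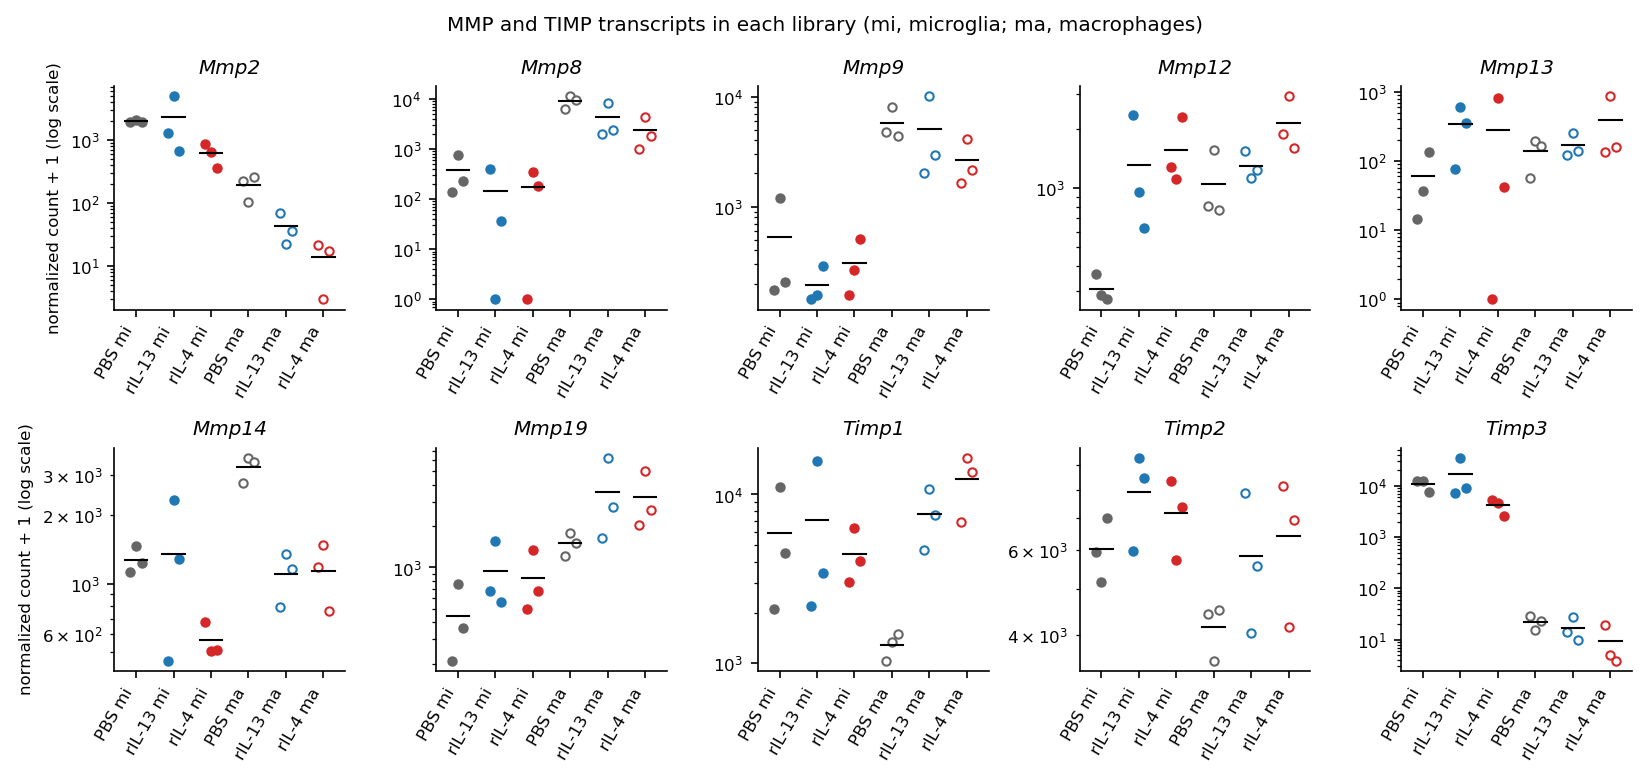
Normalized counts plus 1 of each member in the 18 libraries on log axes, with microglia as filled and macrophages as open circles and a bar at the mean of each group of 3. Timp1 in macrophages goes from 1033 to 1500 with PBS up to 6864 to 16520 with rIL-4, and Mmp14 goes the other way.

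Both cytokines were then compared with each other. In macrophages, edgeR called 0 members between rIL-4 and rIL-13, and 0.250% of all genes. At an unadjusted p under 0.05 there were 2 members, Mmp2 with a difference of -1.67 on the log2 scale (adjusted p = 0.414, edgeR) and Mmp12 with 0.74 (adjusted p = 0.411, edgeR), and DESeq2 called 0. In microglia, edgeR called 0 members and 0.0385% of all genes. Here 3 members had an unadjusted p under 0.05, all lower with rIL-4, which were Timp3, Mmp2 and Mmp14. The log2 fold changes of Mmp2 and Mmp14 were -1.82 (adjusted p = 0.36, edgeR) and -1.22 (adjusted p = 0.392, edgeR). DESeq2 called Mmp2 alone (adjusted p = 0.0486). Without the rIL-13 microglia of mouse 6, they were -0.64 and -0.60.

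Microglia and macrophages, which came from the same mice, were compared next. The main fit did not pair the libraries of a mouse, and the mouse as a block was an alternative. With PBS, 8 of 10 members were called, against 25.6% of 16535 genes. Timp3, Mmp2 and Timp1 were higher in microglia (15.7% of all genes were), and Mmp8, Mmp9, Mmp12, Mmp14 and Mmp19 were lower (9.90% of all genes were). With rIL-13, 5 members were called against 29.4% of all genes, 2 higher (16.8%) and 3 lower (12.7%) in microglia. With rIL-4, 5 were called against 27.6% of all genes, again 2 higher (15.2%) and 3 lower (12.5%). In both cytokine groups, Timp3 and Mmp2 were higher in microglia and Mmp8, Mmp9 and Mmp19 were lower. Leaving out 1 mouse left 4 calls with PBS, 3 to 6 with rIL-13 and 3 with rIL-4, where the share of all genes called was also lower, at 14.1% to 14.9%, 18.2% to 21.3% and 18% to 20.3%.

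Timp3 had the largest difference, with a log2 fold change of 8.94 with PBS (standard error 0.748), 9.98 with rIL-13 and 8.87 with rIL-4. The largest adjusted p of the 3 was 3.95e-07 in edgeR. For Mmp2, the log2 fold change was 3.31 with PBS (adjusted p = 0.00176, edgeR), 5.72 with rIL-13 (adjusted p = 3.66e-05, edgeR) and 5.53 with rIL-4 (adjusted p = 7.02e-05, edgeR). These calls of Timp3 and Mmp2 held without any 1 mouse and in every other alternative. The difference of Mmp2 with rIL-13 was 4.2 without mouse 6 and 6.56 without mouse 5, and that of Timp3 with rIL-4 was 9.99 without mouse 8.

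Both genes moved with the markers of fibroblasts and pericytes in the microglia libraries. Over the 9 libraries, the correlation with the summed markers on log values was 0.956 for Mmp2, 0.929 for Timp3 and 0.765 for Mmp14, and mouse 6 with rIL-13 was the highest microglia library for each of the 3. The share of fibroblast or pericyte RNA in the levels of Mmp2 and Timp3 was not tested.

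**Figure D4:**
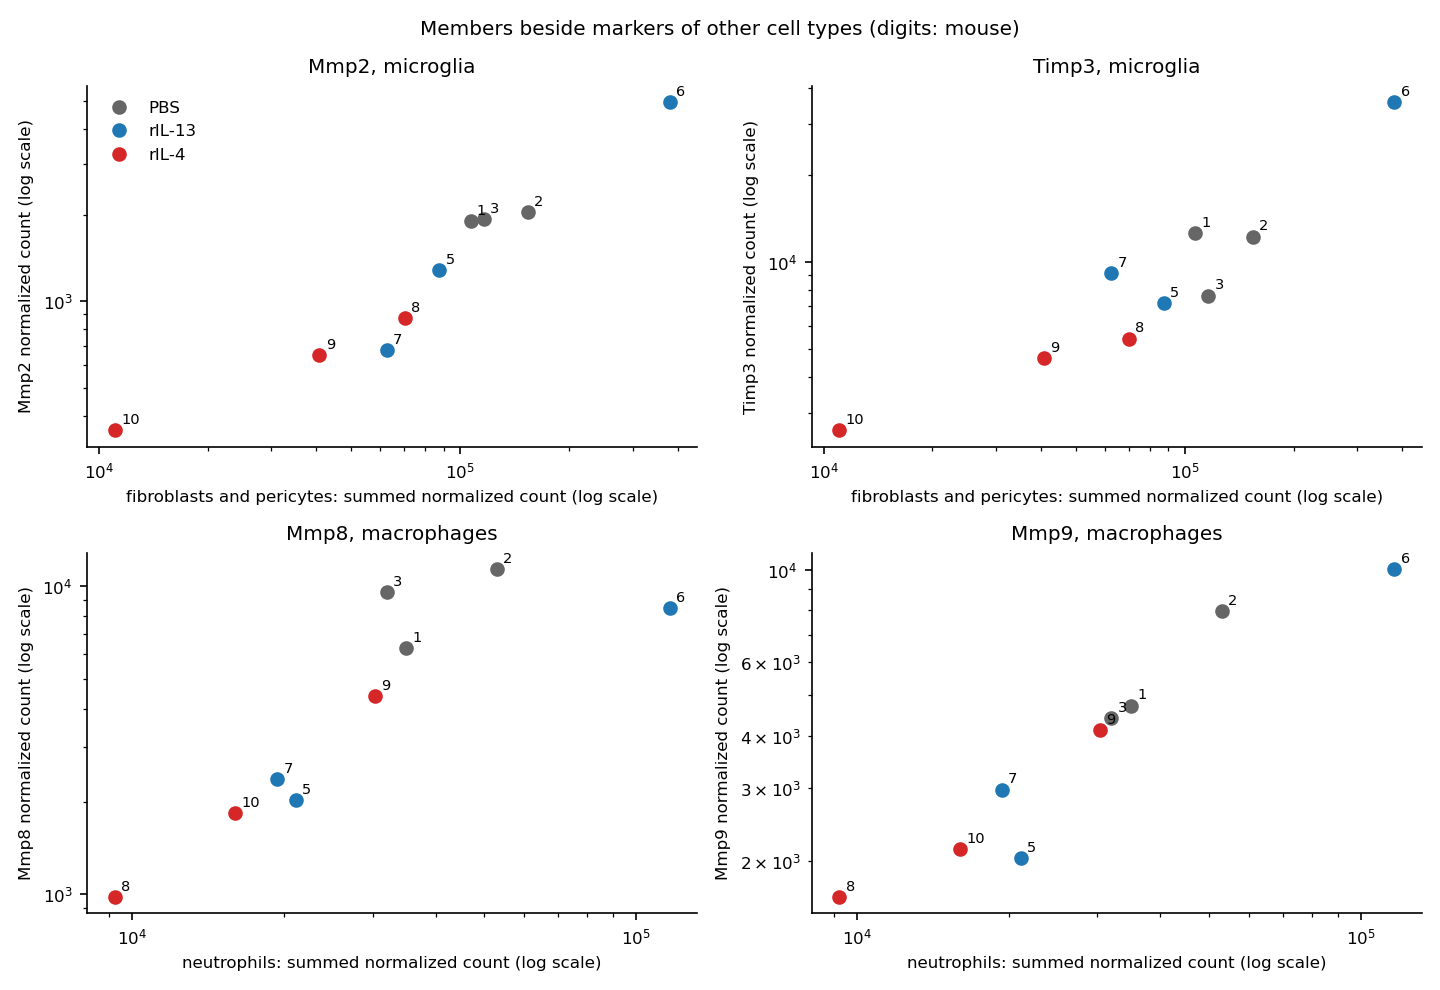
Members against summed markers of another cell type, both as normalized counts on log axes, with 1 point per library and the mouse number beside it. Top, Mmp2 and Timp3 in microglia against 12 fibroblast and pericyte markers. Bottom, Mmp8 and Mmp9 in macrophages against 12 neutrophil markers. Mouse 6 with rIL-13 has the highest sum in all panels, and the PBS and rIL-4 microglia do not overlap in Mmp2.

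The members that were lower in microglia were led by the neutrophil enzymes. Mmp8 had a log2 fold change of -4.60 with PBS, -4.94 with rIL-13 and -3.83 with rIL-4. The adjusted p of Mmp8 was 0.0227, 0.0158 and 0.0457 in edgeR, and the calls with PBS and rIL-4 were lost without any 1 mouse and that with rIL-13 without mouse 6 or 7, where edgeR gave an adjusted p of up to 0.138. With only the 6 libraries compared, the calls with rIL-13 and rIL-4 were lost, and DESeq2 did not call that with rIL-4 (adjusted p = 0.0605). The difference of Mmp8 with rIL-13 was -8.28 without mouse 5, -3.39 without mouse 6 and -5.91 with the mouse as a block. It was -5.43 with PBS without mouse 2, and -4.42 with rIL-4 under the block. For Mmp9, the values were -3.48 with PBS (adjusted p = 0.0028, edgeR), -4.73 with rIL-13 (adjusted p = 0.000333, edgeR) and -3.16 with rIL-4 (adjusted p = 0.00498, edgeR). The last was -2.57 and lost without mouse 9 (adjusted p = 0.0642, edgeR), and -3.84 without mouse 10. That of Mmp9 with PBS was -4.59 without mouse 2, and that with rIL-13 was -3.58 without mouse 6 and -5.40 without mouse 7. Over the 9 macrophage libraries, Mmp9 and Mmp8 had correlations of 0.957 and 0.863 with the summed neutrophil markers. That sum was 31970 to 52960 with PBS, 19390 to 116600 with rIL-13 and 9232 to 30340 with rIL-4, with all 12 markers counted in each group. In PBS macrophages, the means of the 12 ran from 34.2 normalized counts for Stfa2 to 10370 for S100a9 and 11430 for S100a8, with Ngp at 4325, Ltf at 2265 and Ly6g at 106. With rIL-4, 11 of the 12 had a lower mean than with PBS. Fibroblast and pericyte markers, low as they were in macrophages, had correlations of 0.947 and 0.882 with Mmp9 and Mmp8 there. Most of their sum was 1 gene, Igfbp6, with a mean of 374 of 673.5 with PBS, 482 of 739.8 with rIL-13 and 269 of 304.7 with rIL-4. What neutrophil RNA added to Mmp8 and Mmp9 was not tested.

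Mmp19 was lower in microglia in all treatments, with log2 fold changes of -1.79, -1.99 and -2.02 and adjusted p of 0.0294, 0.0153 and 0.0146 in edgeR for PBS, rIL-13 and rIL-4. Without single mice, adjusted p reached 0.159, 0.0796 and 0.0692. With PBS, Mmp12 and Mmp14 were lower in microglia, by log2 fold changes of -1.80 (adjusted p = 0.0064, edgeR) and -1.38 (adjusted p = 0.017, edgeR). Timp1 was higher in PBS microglia, by 2.16 on the log2 scale (adjusted p = 0.0242, edgeR). The call of Mmp12 was lost without PBS mouse 2, and those of Mmp14 and Timp1 without any 1 of the 3 PBS mice. Without mouse 2, the difference of Timp1 was 1.38.

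With rIL-4, Timp1 lay the other way, with a log2 fold change of -1.54 between microglia and macrophages (adjusted p = 0.089, edgeR), and Mmp14 had -1.07 (adjusted p = 0.0544, edgeR). Both were called with the mouse as a block and with only the 6 libraries compared, and Mmp14 also by DESeq2 (adjusted p = 0.0453). The blocked log2 fold change was -1.51 for Timp1 (adjusted p = 0.0128, edgeR) and -1.04 for Mmp14 (adjusted p = 0.0183, edgeR), and 7 members in all were called in rIL-4 mice, beside 25% of all genes under the block.

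**Figure D5:**
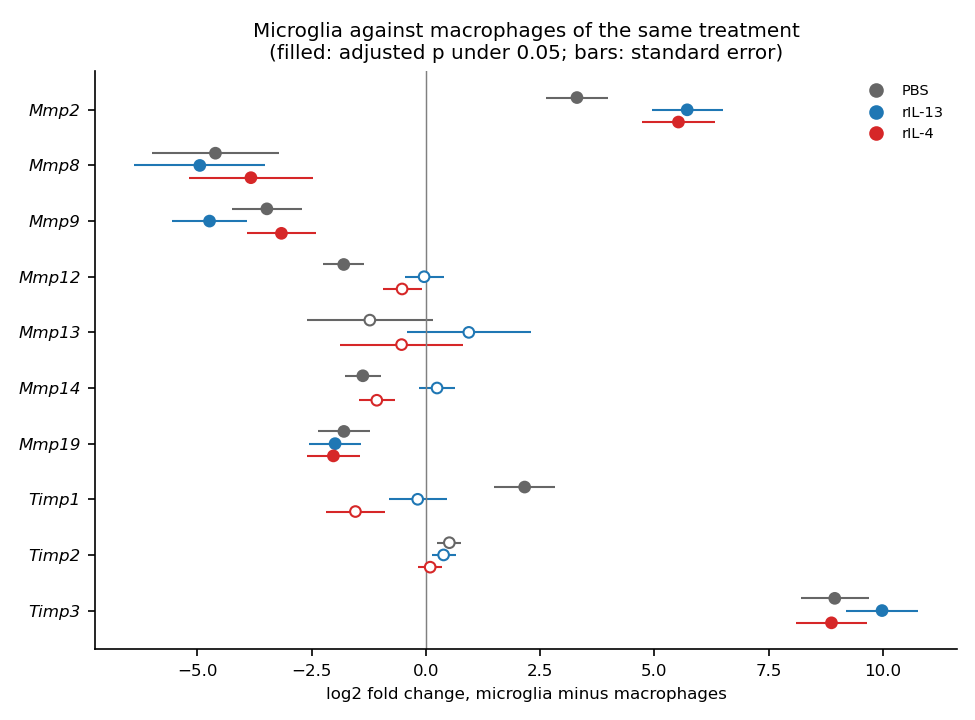
Log2 fold change between microglia and macrophages of the same treatment for the 10 members, with standard errors. Filled points passed an adjusted p of 0.05 in edgeR. Timp3 and Mmp2 lie to the right in all treatments, Mmp8, Mmp9 and Mmp19 to the left, and Timp1 goes from 2.16 with PBS to -1.54 with rIL-4.

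Whether the cell types responded differently was tested as an interaction, the response in microglia minus that in macrophages. For rIL-4, edgeR called 0 members and 0.992% of all genes, and 2 members, Timp1 and Mmp2, had an unadjusted p under 0.05. The interaction of Timp1 was -3.70 on the log2 scale, with a standard error of 0.928 (adjusted p = 0.0742, edgeR). With the mouse as a block, it was -3.36 with a standard error of 0.539 and passed the threshold (adjusted p = 0.0161, edgeR). DESeq2 called Timp1 too, and no other member. Without PBS mouse 2, which had the highest Timp1 among PBS microglia, the interaction without the block was -2.92. For Mmp2, it was 2.22 (adjusted p = 0.35, edgeR).

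For rIL-13, edgeR and DESeq2 each called 0 members, and edgeR called 0.0242% of all genes. There, 4 members had an unadjusted p under 0.05. The interaction was -2.34 for Timp1, 2.41 for Mmp2, 1.62 for Mmp14 and 1.76 for Mmp12, with adjusted p of at least 0.601 in edgeR. That of Mmp2 was 0.90 without mouse 6 and 3.26 without mouse 5, that of Timp1 was -3.32 without mouse 6 and -1.56 without PBS mouse 2, and that of Mmp12 was 1.16 without mouse 5.

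The rest of the family was sparse. Of 18 other MMP and inhibitor genes, 12 were tested in microglia and 4 in macrophages. In microglia, 0 of the 12 were called with either cytokine, beside 2.22% of all genes with rIL-4 and 0.366% with rIL-13. In macrophages, 1 of the 4 was lower with both, which was Mmp27, beside 7.20% of all genes with rIL-4 and 1.66% with rIL-13. Its log2 fold change was -3.07 with rIL-4 (adjusted p = 0.000885, edgeR) and -2.05 with rIL-13 (adjusted p = 0.0144, edgeR). The former held in all 12 alternatives and the latter in 9 of 12. The median log2 fold change of the 4 was -1.04 with rIL-4 and -0.36 with rIL-13.

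Genes that activate, bind or take up MMPs formed a list of 23, of which 19 were tested in microglia and 18 in macrophages. With rIL-4, 2 rose and 6 fell in macrophages, beside 6.77% and 7.20% of all genes. Furin, the convertase that opens pro-MMP14 inside the cell, rose by 1.06 on the log2 scale (adjusted p = 0.000504, edgeR), and Itgb3, an integrin subunit, by 2.45 (adjusted p = 0.00107, edgeR). Serpine2, an inhibitor of thrombin and plasminogen activators, fell by 4.36 on the log2 scale (adjusted p = 0.000221, edgeR), Thbs1 (thrombospondin 1) fell by 2.10 (adjusted p = 0.00325, edgeR) and Ctsg (cathepsin G) by 3.87 (adjusted p = 0.0126, edgeR). Plau, the urokinase that generates plasmin, fell by 1.03 (adjusted p = 0.0173, edgeR), Thbs2 (thrombospondin 2) fell by 3.75 (adjusted p = 0.0316, edgeR) and Plat (tissue plasminogen activator) fell by 4.31 (adjusted p = 0.0498, edgeR). Of the 8, Furin, Itgb3, Serpine2 and Thbs1 held in all 12 alternatives, Thbs2 in 9 and Plau in 8 of 12, Ctsg in 8 of 11 and Plat in 3 of 10. Without rIL-4 mouse 8, Thbs2 was at -6.78 and Ctsg at -4.49 on the log2 scale. Plat was at -6.83 without rIL-4 mouse 10 and at -3.43 without PBS mouse 1. With rIL-13, 3 rose and 2 fell, beside 2.53% and 1.66% of all genes. Furin rose by 1.12 (adjusted p = 0.00119, edgeR), and Plau fell by 2.02 (adjusted p = 0.00201, edgeR), both in all 12 alternatives. Itgb3 and Plgrkt rose and Serpine2 fell as well, in 6, 2 and 9 of the 12. In microglia, rIL-4 raised Furin by 1.61 (adjusted p = 0.03, edgeR) and lowered Serpine2, which fell by 2.62 (adjusted p = 0.0137, edgeR), and these held in 7 and 9 of 12, where 2.22% of all genes were called. rIL-13 changed 0 of the 19 in microglia in edgeR, beside 0.366% of all genes.

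Among 17 ADAM and ADAMTS proteases, which share the metzincin fold with the MMPs, 9 were tested in macrophages, of which 2 fell with rIL-4 and 1 with rIL-13, beside 7.20% and 1.66% of all genes. Adamts1, which cuts aggrecan and versican, fell by 5.60 on the log2 scale with rIL-4 (adjusted p = 0.000409, edgeR) and by 2.84 with rIL-13 (adjusted p = 0.0149, edgeR). The latter was lost without rIL-13 mouse 5 or 7 (adjusted p = 0.0547 and 0.0651, edgeR). Without PBS mouse 1, the changes of Adamts1 were -4.87 and -2.12. For rIL-4 its response differed between the cell types, with an interaction of 5.22 (adjusted p = 0.00601, edgeR). This call held in all 11 alternatives, with values from 4.49 to 5.83. Adam19 fell by 1.57 with rIL-4 (adjusted p = 0.0323, edgeR), in 5 of 12 alternatives. In microglia, 1 of 16 changed with rIL-4, beside 2.22% of all genes. It was Adam8, which rose by 1.45 with rIL-4 (adjusted p = 0.0336, edgeR), in 6 of 12.

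Of 14 genes for matrix proteins that MMPs cut, 9 were tested in macrophages, of which 1 rose and 2 fell with rIL-4, beside 6.77% and 7.20% of all genes, and 1 rose with rIL-13, beside 2.53%. Fn1 (fibronectin) rose by a log2 fold change of 2.03 with rIL-4 (adjusted p = 0.0045, edgeR) and of 1.83 with rIL-13 (adjusted p = 0.0194, edgeR). With rIL-4, Vtn (vitronectin) fell by 5.98 (adjusted p = 0.00541, edgeR) and Col4a1 (type IV collagen) by 2.13 (adjusted p = 0.00838, edgeR), and the change of Vtn was -5.32 without PBS mouse 1. In microglia, Ncan (neurocan) fell by 2.73 with rIL-4 (adjusted p = 0.022, edgeR), and Spp1 (osteopontin) fell by 1.78 with rIL-13 (adjusted p = 0.0305, edgeR), each in 6 of 12 alternatives and each as 1 of 14 genes tested, beside 2.22% of all genes called with rIL-4 and 0.366% with rIL-13. The rIL-4 results in macrophages held in every alternative that gave a value, and Fn1 with rIL-13 in 9 of 12. Markers of several other cell types lay lower in the same rIL-4 macrophages. The mean was below that with PBS for 12 of 12 fibroblast and pericyte, 10 of 10 microglial and 11 of 12 neutrophil markers. The same held for 6 of 6 markers shared by microglia and macrophages, such as Csf1r. By contrast, 4 of 6 astrocyte and 3 of 8 endothelial markers had a higher mean. The mean astrocyte sum went from 1009 with PBS to 9488 with rIL-4, and the endothelial one from 2005 to 11140. The part of other cells in the lower levels of Vtn, Col4a1, Serpine2, Thbs1, Thbs2, Plat, Ctsg and Adamts1 was not tested.

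The genes most like each member over the 18 libraries, by Pearson's r of log2 normalized counts, are given as a description, since the libraries share 2 cell types and 3 treatments. For Timp3, they were Parva, Serpinh1 and Fkbp9, with r of up to 0.994, and for Mmp2 Bmp1, Maged2 and Thbs2, with r of up to 0.974. Mmp8 was most like Tlr5 (r = 0.964), Mmp9 like Sirpb1a (r = 0.982) and Mmp19 like Sertad1 (r = 0.962). Those of Timp1 were Errfi1, Gja1 and Tgfb3, with r of up to 0.913. Mmp12 was most like 1810011H11Rik (r = 0.879) and Pdcd1lg2 (r = 0.87), the second of which encodes a ligand of PD-1. For Mmp14, Timp2 and Mmp13, the highest r was 0.849 with Rsad2, 0.869 with Decr1 and 0.873 with Tango6. Among the members themselves, Mmp2 and Timp3 had r = 0.907 and Mmp8 and Mmp9 had r = 0.837.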

How the data were processed

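RNA of microglia and macrophages sorted from the same 9 injured cords was amplified by SMART-seq2, which keeps neither strand nor molecular identifiers. The authors mapped reads to GRCm38 with STAR 2.5.3a and deposited RSEM 1.3.0 expected counts per gene, which are whole and not normalized. Reads that fit several genes are shared out by RSEM. Totals of 35961305 to 45849829 counts per library limit the precision of the lowest members most. Amplified reads without molecular identifiers are not independent molecules, and counting error was not compared with the spread between mice. The members and gene lists were chosen with earlier results of these data known. All members are named, together with up to 3 of the genes most like each. Called genes of the lists were to be named up to 5 per list and comparison. More are named for activation, binding and uptake genes with rIL-4 in macrophages, where all that were called are given.

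edgeR 4.0.16 (R 4.3.3) with TMM normalization, its filter on low counts and the quasi-likelihood test was fitted to the 9 libraries of a cell type for the cytokine comparisons and to all 18 for the cell type and interaction comparisons. p-values were two-sided and adjusted by the Benjamini-Hochberg method over all genes tested. Standard errors came from the F statistic. The code was tested on simulated data. Alternatives were DESeq2 1.42.0, its size factors, no filter, a mean count of at least 20, other sets of libraries, the mouse as a block, and leaving out each mouse. The mouse numbers pair microglia with macrophages because both came from 1 animal. The deviations of the paired libraries from their group means had correlations of 0.0117 to 0.0873 over 16535 genes. Each group is 3 mice, and 0 pairs of libraries were identical. Normalized counts were counts over DESeq2 size factors, and correlations used log2 of these plus 1. Exon lengths came from GENCODE vM21, in which 50604 of 53465 identifiers had the same version. Promoter windows and their build came from RefSeq.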

Additional observations from a re-analysis of the deposited data

How the results depend on the processing

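Of the 47 member log2 fold changes with an unadjusted p under 0.05, none changed sign under any alternative run, and of the 25 that were called, 11 were called under every alternative. Of the other 63, which were not called, 32 had another sign in at least 1 alternative. Among those printed, this held for Timp1 in microglia, from -0.77 to 0.45 with rIL-4 and from -1.05 to 1.07 with rIL-13 when 1 mouse was left out, for Mmp9 in rIL-13 macrophages, from -1.15 to 0.21, for Mmp13 in rIL-4 microglia, from -1.56 to 3.56, and for Mmp13 in rIL-13 macrophages, from -0.066 to 0.68. The number of members called moved as follows, with the share of all genes called in parentheses. For rIL-4 against PBS in microglia it was 1 (2.22%), but 2 with only the 6 libraries compared (2.85%) and 0 without any 1 mouse (0.459% to 1.62%). For rIL-13 against PBS in microglia it was 0 (0.366%), but 1 with DESeq2 (2.07%) and 1 when a single model held all 18 libraries (1.04%). For the comparison of both cytokines in microglia it was 0 (0.0385%), but 1 with DESeq2 (3.58%). For rIL-4 against PBS in macrophages it was 4 (14.0%), but 6 with no filter on low counts (8.72%), 5 with DESeq2 (19.6%) and with only the 6 libraries compared (14.6%), 3 when a single model held all 18 libraries (6.37%) and 3 to 5 without 1 mouse (7.39% to 11.4%). For rIL-13 against PBS in macrophages it was 2 (4.19%), but 3 with DESeq2 (8.55%), 4 with no filter on low counts (3.26%) and 0 when a single model held all 18 libraries (1.55%). Between the cell types, leaving out 1 mouse gave 4 calls in place of 8 with PBS, 3 to 6 in place of 5 with rIL-13, and 3 in place of 5 with rIL-4, while the share of all genes called went from 25.6%, 29.4% and 27.6% to at most 14.9%, 21.3% and 20.3%. For the rIL-4 interaction it was 0 (0.992%), but 1, Timp1, with DESeq2 (4.17%), with no filter on low counts (0.655%) and with the mouse as a replicate block (1.14%). That block gave 7 members in place of 5 between the cell types with rIL-4 (25%), where the 6 libraries alone gave 6 (23.4%), and changed no other member call. The causes were not tested, except that a fit without 1 mouse holds fewer samples.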
